A study of Homo sapiens with 6 samples.

Results

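The ATF4 stress response genes were examined in the human leukemia line K562 on Affymetrix Human Genome U133 Plus 2.0 arrays. The genes were ATF4, ATF3, ATF5, DDIT3, DDIT4, TRIB3, CHAC1, ASNS, SESN2 and VLDLR, taken by name, and all 18 probe sets annotated to 1 of these 10 genes were used, of 54613 probe sets and 19775 genes tested. Empty vector cells (KpCDNA, 2 arrays) were stably transfected with the pCDNA vector alone, and CTCF cells (KCTCF-D11, 4 arrays) with pCDNA carrying CTCF, a DNA-binding protein of insulators and chromatin loops. No further treatment was given to either. The comparison is between cells with added CTCF and cells without it. Since all CTCF arrays come from the transfectant named D11, its own traits and the action of CTCF cannot be told apart. The labels do not say whether arrays of a group came from separate cultures, and the p-values cover the spread between arrays only.

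ATF4 is a transcription factor of the bZIP family whose mRNA is translated better when the initiation factor eIF2 is phosphorylated, which happens when a cell lacks amino acids or heme or when unfolded proteins gather in the endoplasmic reticulum. With partners such as C/EBP proteins it binds composite elements in target genes, among them genes of amino acid synthesis and transport and genes of growth arrest and cell death. Since this control acts on translation and protein stability, the ATF4 transcript itself need not follow ATF4 activity, and the transcripts of its targets are the usual readout. Several targets act in turn on the response, DDIT3 as a partner, TRIB3 as an inhibitor of ATF4.

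Promoter windows are shown for the 3 genes in which the composite element was found and for DDIT4 and SESN2, whose array profiles were nearest to that of CHAC1. The element was searched as TGATGNAA on both strands of RefSeq windows of 300 bases (250 before and 50 after each annotated start, GRCh38.p14), which covered all 10 genes in 18 windows. It was found in 3 of 18 windows and 3 of 10 genes, against 3.62% of 35116 windows and 4.46% of 27305 genes. CHAC1 had it 209 bases before the start on the reverse strand, ASNS 68 bases and ATF3 191 bases before the start on the forward strand. The CCAAT box, searched as CCAAT on both strands, was in 5 of 10 genes against 39.7% of all genes. The other motifs searched, the CRE (TGACGTCA), the endoplasmic reticulum stress element (which holds a CCAAT box) and a CTCF core, were in 0 of the 18 windows and in 1.85%, 0.0769% and 2.41% of all windows. A match is a description of letters, not a bound site. The 250 bases before the start follow, 5′ to 3′ on the gene's strand, with composite elements and CCAAT boxes in capitals.
CHAC1, chr15:40953221-40953470 (+ strand): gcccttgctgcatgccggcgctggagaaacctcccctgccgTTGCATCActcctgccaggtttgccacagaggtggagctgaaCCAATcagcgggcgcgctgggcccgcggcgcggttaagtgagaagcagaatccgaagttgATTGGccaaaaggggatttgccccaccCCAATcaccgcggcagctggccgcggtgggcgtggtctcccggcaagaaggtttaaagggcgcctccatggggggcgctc
ASNS, chr7:97872409-97872658 (- strand): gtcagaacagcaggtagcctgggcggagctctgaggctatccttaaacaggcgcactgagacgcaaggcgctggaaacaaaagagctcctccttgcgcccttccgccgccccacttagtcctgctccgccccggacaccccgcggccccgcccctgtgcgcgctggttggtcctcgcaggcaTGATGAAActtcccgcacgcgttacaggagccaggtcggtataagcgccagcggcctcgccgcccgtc
ATF3, chr1:212565157-212565406 (+ strand): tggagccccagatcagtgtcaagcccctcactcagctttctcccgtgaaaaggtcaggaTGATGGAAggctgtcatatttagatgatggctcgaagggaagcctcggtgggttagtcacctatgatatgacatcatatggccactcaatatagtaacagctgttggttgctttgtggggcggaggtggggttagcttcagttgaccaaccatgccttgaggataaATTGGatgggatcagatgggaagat
DDIT4, chr10:72273674-72273923 (+ strand): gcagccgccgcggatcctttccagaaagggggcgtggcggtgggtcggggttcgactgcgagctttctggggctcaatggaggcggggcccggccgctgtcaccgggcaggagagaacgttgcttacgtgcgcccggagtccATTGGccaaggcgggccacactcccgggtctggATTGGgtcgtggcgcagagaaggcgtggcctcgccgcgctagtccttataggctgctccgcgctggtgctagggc
SESN2, chr1:28259268-28259517 (+ strand): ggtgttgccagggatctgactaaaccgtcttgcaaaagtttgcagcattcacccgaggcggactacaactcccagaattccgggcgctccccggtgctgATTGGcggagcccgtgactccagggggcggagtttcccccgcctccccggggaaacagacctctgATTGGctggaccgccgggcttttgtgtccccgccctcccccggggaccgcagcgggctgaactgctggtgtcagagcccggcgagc

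The arrays fell into 3 pairs by their spike-in controls, which are bacterial and phage sequences added to the samples, and 1 of the pairs held CTCF arrays alone. Empty vector array 1 with CTCF array 4 and empty vector array 2 with CTCF array 1 are called the mixed pairs here, and CTCF arrays 2 and 3 the CTCF-only pair. A thr spike-in probe set read 85.2 and 112 in the first mixed pair, 455 and 454 in the second and 853 and 769 in the CTCF-only pair. At the next higher level of the same clustering the second mixed pair and the CTCF-only pair form the larger array set and the first mixed pair the smaller one. The 3 pairs formed at distances of 0.761, 1.10 and 2.39, the larger set at 3.42, and the 2 sets joined at 11.8. The pairs are thus less clearly parted than the sets. Array medians were 28.8 to 34.2. CTCF itself (202521_at) was higher in all CTCF arrays, at 1397 ± 145 (SD, n = 4) against 545 ± 125 (SD, n = 2), with a log2 change of 1.29 ± 0.16 (limma, adjusted p = 0.0288), and it did not follow the pairs, with 1311, 1614, 1332 and 1332 in CTCF arrays 1 to 4. Of 11 K562 markers 10 had a probe set, all with means above 100, and their summed level was 23566 to 24212 in the empty vector and 29875 to 35154 in the CTCF arrays. The markers did not all rise. HBZ means were 2260 in empty vector and 7038 in CTCF arrays, and HBE1 means 8002 and 10862. GATA1, EPOR and ABL1 had lower means with CTCF. Means above 100 were found for 1 of 5 megakaryocyte, 2 of 5 T cell, 1 of 4 B cell, 1 of 6 monocyte and granulocyte and 5 of 6 fibroblast and epithelial markers, and CD14 and ELANE read 3.89 or less on every array. The summed T cell list was 1438 to 1867 in the empty vector and 706 to 1048 in the CTCF arrays, and CD3D fell by 1.04 on the log2 scale (limma, adjusted p = 0.025). Some of these means were raised by the smaller set, such as CD7, which read 398 and 322 there and 7.42 to 22.9 elsewhere. CD79B read 254 and 231 against 19.0 to 38.9, and COL3A1 6627 and 6114 against 146 to 165. Of the K562 markers, EPOR read 1748 and 1346 on the smaller set and 243 to 289 elsewhere. The ACTB 3′ minus 5′ log2 difference, a measure of RNA and labelling quality, was 0.81 and 0.91 on the smaller set's arrays but 0.22 to 0.28 on the larger set's. The same difference for GAPDH did not part the sets, at -0.118 and -0.124 on the smaller set's arrays and -0.113 to -0.146 on the larger set's. LYZ read 812 and 811 in the CTCF-only pair and 318 to 426 on the other arrays. The part of these markers and of ACTB in the results below was not tested.

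No member probe set passed the test of CTCF against empty vector. In limma with the array set as a block, chosen with earlier results of these data known, 0 of 18 had an adjusted p under 0.05. Of all probe sets 1.86% passed (0.538% higher and 1.32% lower with CTCF). An unadjusted p under 0.05 was found for 2 of 18, against 17.6% of all. With the 3 array pairs as the block, a fit added after the data were examined, 0 of 18 passed (1.73% of all did, 0.438% higher and 1.29% lower). There 10 of 18 had an unadjusted p under 0.05 (18.2% of all). Among probe sets brighter than the median, as 16 of the 18 are, the unadjusted shares were 28.9% with the array set block and 29.9% with the pair block. Without a block, 0 of 18 passed (0.011% of all, 0.00366% higher and 0.00732% lower), with 1 of 18 at an unadjusted p under 0.05 (6.83% of all). The members' median log2 change was -0.21 in the first of these fits and 0.061 in the second, beside -0.019 and -0.0097 over all probe sets. The fits part because in the array set block the CTCF-only pair is averaged with CTCF array 1 against empty vector array 2, whereas the pair block takes the change from the mixed pairs alone. A CTCF-only pair without an empty vector array leaves pair and group impossible to tell apart within it. Log2 changes (CTCF over empty vector) and folds between arrays are on log2(value + 16), which understates changes of low values.

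CHAC1, DDIT4, SESN2 and ASNS had a wide spread within the CTCF arrays, and it followed the pairs. At their brightest probe sets the SD of the CTCF log2 values exceeded that of 91.6% to 99.0% of probe sets brighter than the median. For the other members this share ran from 16.6% (VLDLR) and 49.3% (ATF4) to 80.5% (TRIB3). CTCF arrays 2 and 3 both lay below the other 4 arrays in 9 of 18 member probe sets. The share was 11.2% of all probe sets and 13.5% of those brighter than the median, as 16 of the 18 are. CTCF array 1 was at more than 2-fold of both CTCF array 2 and CTCF array 3 in 7 of 18 (38.9%). Of all probe sets 1.04% were so, and of those brighter than the median 1.85%. The 7 were the probe sets of CHAC1 and DDIT4, both of SESN2, and 1 each of ASNS, TRIB3 and ATF3. The median size of the log2 difference between CTCF arrays 1 and 2 was 0.86 for the members and 0.23 for all probe sets, and that between CTCF arrays 2 and 3 was 0.20 and 0.16. Spike-in levels differed between these pairs as given above, and their part in the spread was not tested. This pattern was noticed in these arrays and is given as a description.

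**Figure D1:**
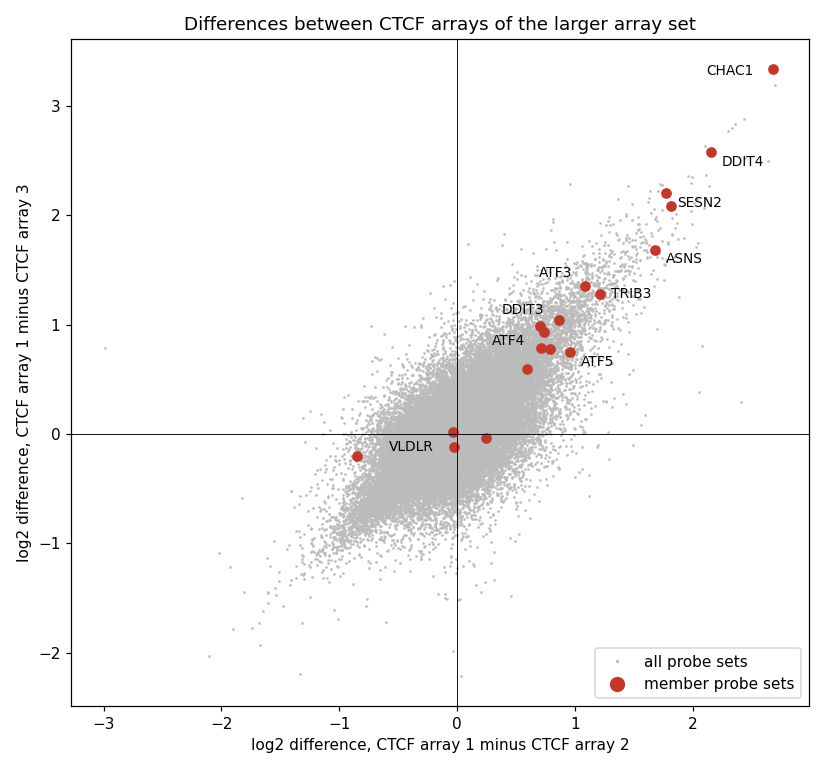
Log2 difference of CTCF array 1 minus CTCF array 2 (x axis) against CTCF array 1 minus CTCF array 3 (y axis), in grey for all 54613 probe sets and in red for the 18 member probe sets, with the brightest probe set of each gene named. CHAC1, DDIT4, SESN2 and ASNS lie far to the upper right, at differences of 1.68 to 3.33, while VLDLR lies near 0; the points share CTCF array 1, so the axes are not independent.

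The ATF4 transcript (200779_at) was nearly level within both mixed pairs. It read 4144 and 4915 in empty vector arrays 1 and 2, and 4997, 3045, 2889 and 4238 in CTCF arrays 1 to 4. CTCF arrays 2 and 3 were the lowest of the 6, and the groups overlapped. The log2 change was -0.27 ± 0.27 (SE) with the array set block (limma, adjusted p = 0.68) and 0.028 ± 0.11 with the pair block (adjusted p = 0.938). Within the mixed pairs CTCF was higher by 0.032 and 0.024 on the log2 scale.

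Among the transcription factors that ATF4 induces, ATF3 was higher and ATF5 lower in the CTCF array of each mixed pair. ATF3, a bZIP factor of the early stress response, read 234 and 415 in empty vector arrays 1 and 2 and 811, 373, 308 and 681 in CTCF arrays 1 to 4 (202672_s_at). CTCF arrays 1 and 4 were the highest of all, while CTCF arrays 2 and 3 lay within the range of the empty vector arrays. Its log2 change was 0.67 ± 0.47 with the array set block (limma, adjusted p = 0.545) and 1.21 ± 0.18 with the pair block (adjusted p = 0.0552, the lowest of any member in any fit), with 1.48 and 0.94 within the mixed pairs. A second ATF3 probe set, 1554980_a_at, had 0.35 ± 0.26 and 0.63 ± 0.15 in the same fits, and there CTCF array 4 at 158 was the lowest CTCF array. The third, 1554420_at, read 22.3 or less on every array.

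ATF5, a close relative of ATF4 that also drives mitochondrial stress genes, had the lowest log2 change of the members with either block. It read 408 and 574 in empty vector arrays 1 and 2 and 280, 136, 161 and 237 in CTCF arrays 1 to 4 (204998_s_at). All 4 CTCF arrays lay below both empty vector arrays. The log2 change was -1.23 ± 0.33 with the array set block (limma, adjusted p = 0.13, unadjusted 0.00977) and -0.87 ± 0.14 with the pair block (adjusted p = 0.0629), and within the mixed pairs it was -0.74 and -0.99. In the authors' deposited table this is the only member probe set among 768 selected ones, with a signed fold change of -2.42 and bounds of -1.60 and -3.66. Of the other ATF5 probe sets, 204999_s_at had -1.15 ± 0.36, 230938_x_at -0.34 ± 0.26 and 217389_s_at -0.074 ± 0.15 with the array set block. With the pair block they had -0.76 ± 0.18, -0.51 ± 0.25 and -0.0027 ± 0.16. At 204999_s_at the groups overlapped, with CTCF array 1 at 171 and empty vector arrays 1 and 2 at 111 and 370. Probe set 217389_s_at parted the arrays by array set, at 52.8 and 59.7 on empty vector array 1 and CTCF array 4 but 21.0 to 32.6 on the others. So did 230938_x_at, at 142 and 115 on that mixed pair but 9.77 to 30.4 on the others.

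DDIT3, also called CHOP, is a C/EBP-related factor linked to cell death under lasting stress. It read 871 and 961 in empty vector arrays 1 and 2 and 752, 405, 357 and 681 in CTCF arrays 1 to 4. All CTCF arrays were below both empty vector arrays, and CTCF arrays 2 and 3 were the lowest. The log2 change was -0.73 ± 0.34 with the array set block (limma, adjusted p = 0.343) and -0.35 ± 0.13 with the pair block (adjusted p = 0.243), with -0.35 in each mixed pair.

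TRIB3, a pseudokinase that binds ATF4 and restrains it, was level within the mixed pairs at its brighter probe set. That probe set (218145_at) read 3706 and 3715 in empty vector arrays 1 and 2 and 4157, 1782, 1700 and 3774 in CTCF arrays 1 to 4. CTCF arrays 1 and 4 lay just above the empty vector arrays and CTCF arrays 2 and 3 far below them. Its log2 change was -0.39 ± 0.42 with the array set block and 0.094 ± 0.12 with the pair block (limma, adjusted p = 0.703 and 0.751). The other probe set, 1555788_a_at, read 1241 and 1319 against 1214, 801, 800 and 996, with all CTCF arrays below both empty vector arrays, and had -0.43 ± 0.21 and -0.22 ± 0.12.

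CHAC1, an enzyme that breaks down glutathione, had the widest spread of the members. It read 275 and 320 in empty vector arrays 1 and 2, and 894, 126, 74.2 and 847 in CTCF arrays 1 to 4. CTCF arrays 1 and 4 were the highest of all arrays and CTCF arrays 2 and 3 the lowest, with the empty vector arrays between them. CTCF array 1 was 6.42-fold of CTCF array 2 and 10.1-fold of CTCF array 3, and the SD of its log2 values over the CTCF arrays was larger than in 99.0% of the probe sets brighter than the median. Within the mixed pairs CTCF was 2.97-fold and 2.71-fold of empty vector, and the log2 change was 1.5 ± 0.24 with the pair block (limma, adjusted p = 0.0585) but 0.29 ± 1.02 with the array set block (adjusted p = 0.924), and -0.57 within the larger set.

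SESN2 and DDIT4, both inhibitors of the growth kinase complex TORC1, had the same order of arrays as CHAC1 at their brightest probe sets. SESN2 (223195_s_at) read 1011 and 1097 in empty vector arrays 1 and 2 and 2024, 580, 427 and 1950 in CTCF arrays 1 to 4. DDIT4 read 4712 and 5106, and 8036, 1789, 1335 and 6702. At these probe sets CTCF arrays 1 and 4 were above and CTCF arrays 2 and 3 below both empty vector arrays. This SESN2 probe set had log2 changes of 0.10 ± 0.68 with the array set block (limma, adjusted p = 0.962) and 0.91 ± 0.18 with the pair block (adjusted p = 0.0826), with 0.94 and 0.87 within the mixed pairs. The second SESN2 probe set (223196_s_at) read 149 and 384 in empty vector and 732, 196, 160 and 448 in CTCF arrays 1 to 4. There CTCF arrays 1 and 4 were again the highest, but CTCF arrays 2 and 3 lay between the empty vector arrays. It had 0.36 ± 0.71 and 1.20 ± 0.19, with 1.49 and 0.90 within the mixed pairs. DDIT4 had -0.35 ± 0.78 (adjusted p = 0.872) and 0.58 ± 0.18 (adjusted p = 0.184), with 0.51 and 0.65 within the mixed pairs.

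ASNS, which makes asparagine and is a standard target of the amino acid arm, stayed below the empty vector arrays in every CTCF array. It read 8229 and 8679 in empty vector arrays 1 and 2 and 7056, 2192, 2183 and 6143 in CTCF arrays 1 to 4 (205047_s_at). CTCF arrays 2 and 3 stood far below the others. The log2 change was -1.02 ± 0.56 with the array set block (limma, adjusted p = 0.422) and -0.36 ± 0.12 with the pair block (adjusted p = 0.201), with -0.42 and -0.30 within the mixed pairs. Its second probe set read 17.6 or less on all arrays.

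VLDLR, a lipoprotein receptor that ATF4 and hypoxia can induce, was low and did not share the pattern. It read 51.1 and 46.4 in empty vector arrays 1 and 2 and 36.4, 37.7, 35.9 and 50.3 in CTCF arrays 1 to 4. The first mixed pair was the highest among the CTCF and empty vector arrays, and the groups overlapped. Its log2 change was -0.15 ± 0.12 with the array set block (limma, adjusted p = 0.58) and -0.13 ± 0.12 with the pair block.

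**Figure D2:**
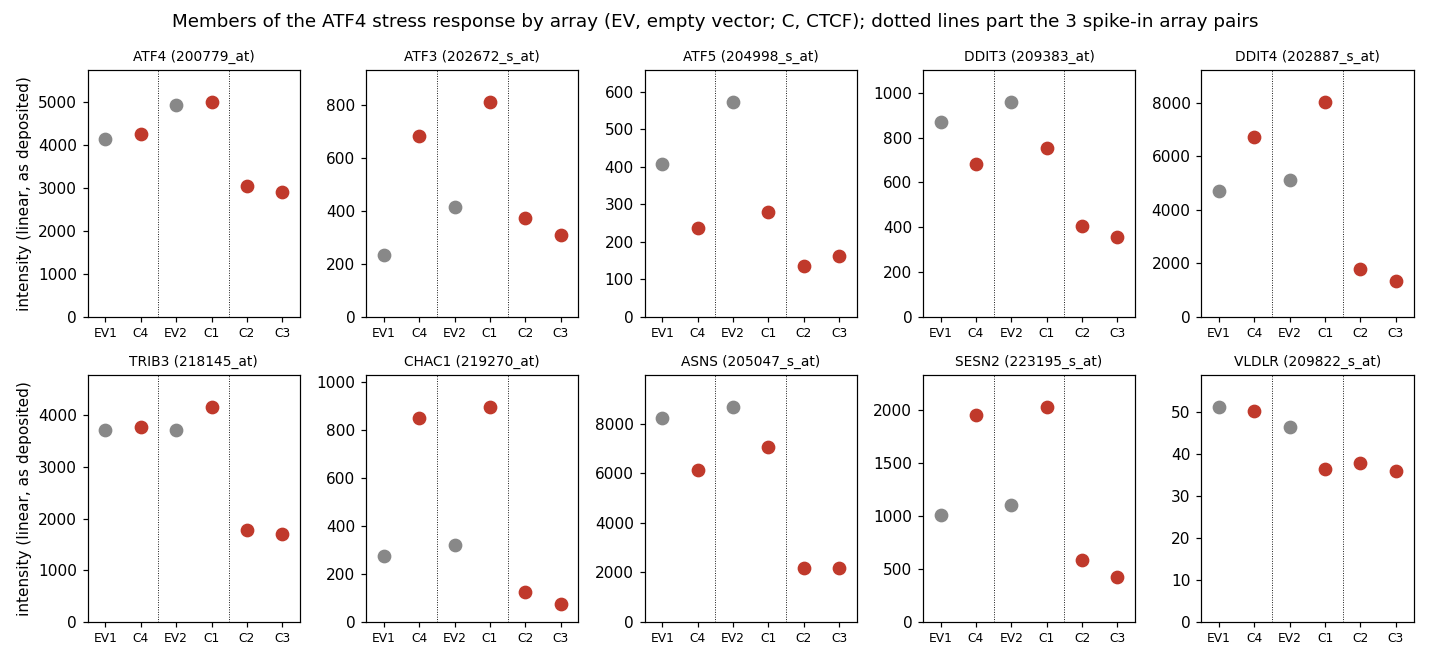
Deposited intensity (linear axis from 0) of the brightest probe set of each gene on every array, grey for empty vector (EV1, EV2) and red for CTCF (C1 to C4), with dotted lines between the 3 spike-in array pairs. In CHAC1, SESN2 and DDIT4 the CTCF arrays of the mixed pairs lie above and CTCF arrays 2 and 3 below both empty vector arrays, while ATF5, DDIT3 and ASNS are lower in all 4 CTCF arrays.

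Set beside each other, the members divided in direction within the mixed pairs. CTCF was higher by over 0.5 on the log2 scale in both mixed pairs for 5 of 18 member probe sets. These were the probe sets of CHAC1 and DDIT4, both of SESN2 and 1 of ATF3. The share was 2.2% of all probe sets and 4.04% of those brighter than the median. CTCF was lower by over 0.5 in both mixed pairs for 1 of 18, ATF5. That held for 4.31% of all and for 2104 of the 27307 brighter than the median. Over all 6 arrays the groups did not overlap in 4 of 18 (ATF5, DDIT3, ASNS and TRIB3, 1 probe set each), all with CTCF lower, against 7.18% of all probe sets; none had CTCF higher, against 6.06% of all.

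**Figure D3:**
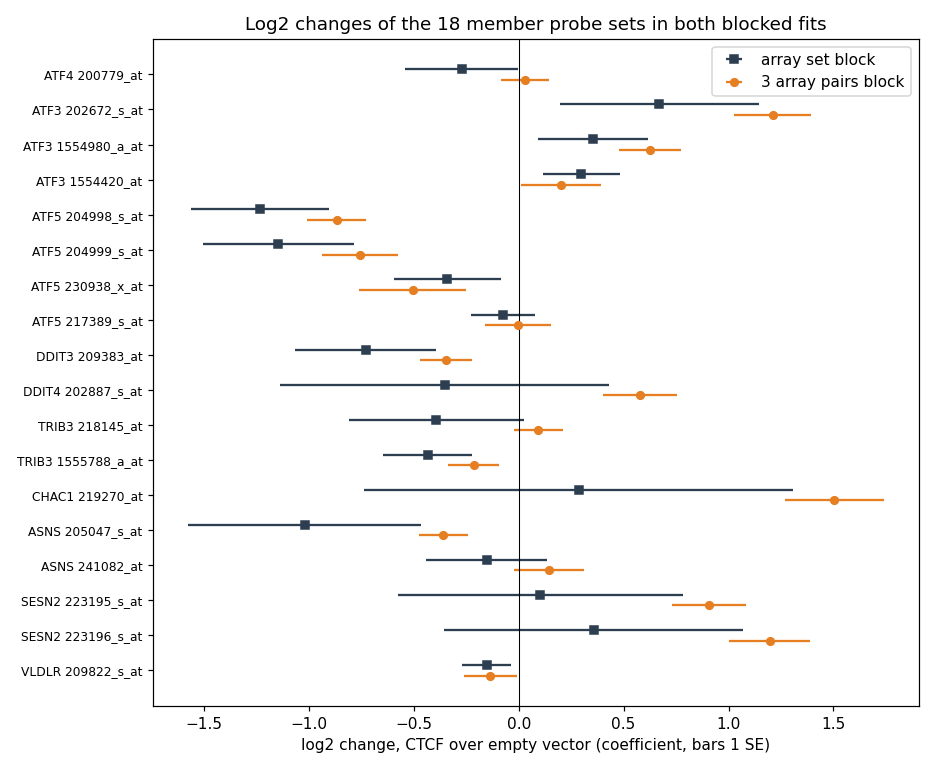
Log2 change of CTCF over empty vector for the 18 member probe sets, as limma coefficients with bars of 1 SE, with the array set block (squares) and the 3 array pairs block (circles). The bars of CHAC1, SESN2 and DDIT4 are wide with the array set block (SE 0.68 to 1.02) and narrow with the pair block (SE 0.18 to 0.24), and none of the points passed an adjusted p of 0.05.

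The genes whose profile over the 6 arrays was most like that of a member were named by the root mean square difference of log2 values, each centred on its own mean; all profiles share the array pairs, so likeness includes any effect of these. For ATF5, the member with the largest change with the array set block, the nearest of the other 19774 genes were SPRY4-IT1 (0.12), UCN (0.13), RBM41 (0.15), WARS1 (0.15) and HECA (0.16). WARS1, a tRNA synthetase, read 3758 and 4843 in empty vector arrays 1 and 2 and 2955, 1486, 1321 and 2012 in CTCF arrays 1 to 4. For CHAC1, chosen after its values were seen, the nearest were DDIT4 (0.41), SESN2 (0.42), SLC7A11 (0.42), EGR1 (0.57) and INHBE (0.61), so that the first and second of all genes were members. SLC7A11, the cystine carrier, read 1188 and 1277 in empty vector arrays 1 and 2 and 2674, 597, 543 and 2115 in CTCF arrays 1 to 4, with the array order of CHAC1. TRIB3 was the 22nd, ASNS the 41st, ATF3 the 64th, DDIT3 the 184th and ATF4 the 302nd nearest to CHAC1. ATF5 was the 1966th and VLDLR the 4007th. For ATF5 the nearest members were DDIT3 (66th), ASNS (279th), TRIB3 (522nd) and ATF4 (783rd). VLDLR was the 2845th, DDIT4 the 8517th, SESN2 the 10795th, ATF3 the 15409th and CHAC1 the 17979th.

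Other genes of the response were counted by list, with 1 probe set per gene; 2.57% of all genes passed with the array set block and 2.45% with the pair block. Enzymes of amino acid synthesis had the lowest medians of the 10 lists in both fits. Of 13 measured, 0 rose and 2 fell with the array set block, and 0 and 3 with the pair block, with medians of -0.77 and -0.50 beside -0.020 and -0.023 over all genes. ASS1, of arginine synthesis, fell by 3.40 on the log2 scale (SE 0.21) with the array set block (limma, adjusted p = 0.0104) and fell by 3.19 (SE 0.14) with the pair block. PHGDH, of serine synthesis, fell by 2.99 (SE 0.47, adjusted p = 0.0479) and fell by 2.44 (SE 0.14). ALDH1L2, a mitochondrial folate enzyme, fell by 2.25 (SE 0.27) with the pair block (adjusted p = 0.0379). In PHGDH and ALDH1L2 too, CTCF arrays 2 and 3 were the lowest, PHGDH with 279 and 250 beside 755 and 491 in CTCF arrays 1 and 4 and 3034 and 3741 in the empty vector arrays.

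Amino acid carriers and tRNA synthetases held few calls, and in most of them CTCF arrays 2 and 3 were the lowest. Of 10 carriers 0 passed with the array set block, and SLC7A11 alone rose with the pair block, by 0.94 ± 0.13 (limma, adjusted p = 0.0488, against 0.971 with the array set block). CTCF arrays 2 and 3 were both below the other 4 arrays in 6 of 10 carriers and in 11 of 12 measured genes of the synthetase list, which includes the tRNA export factor XPOT, against 11.3% of all genes. All 4 CTCF arrays lay below both empty vector arrays in 8 of 12 synthetase list genes and in 0 of 10 carriers, against 9.63% of all genes. Of those 12, 0 passed in either fit, with medians of -0.50 and -0.23, and IARS1 had -0.46 ± 0.19. The kinases and phosphatase subunits that act on eIF2 gave 0 calls among 11 in either fit, with medians of -0.21 and -0.18, and EIF2AK1, the heme-regulated kinase, had -0.24 ± 0.16.

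Among 24 partners and related bZIP factors, 0 passed with the array set block, where JUND had -0.18 ± 0.14. With the pair block CEBPD alone passed and fell by 1.31 (SE 0.13, limma adjusted p = 0.0318). Of 24 other targets 0 rose and 1 fell with the array set block and 0 and 2 with the pair block. KLHL24 fell by 2.17 (SE 0.24) and fell by 1.95 (SE 0.17), and the cyclin CCNG2 fell by 1.24 (SE 0.16) with the pair block.

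The chaperone genes of the other arms of the unfolded protein response, ATF6 and XBP1, did not share the spread. CTCF arrays 2 and 3 were below the other 4 arrays in 1 of 16 measured, and the median difference between CTCF arrays 1 and 2 was 0.24 in size. With the array set block 1 of 16 fell and 0 rose, SEL1L by 1.22 (SE 0.12, limma adjusted p = 0.0236). With the pair block 2 fell and 0 rose. MANF, a secreted endoplasmic reticulum protein, fell by 1.17 (SE 0.11, adjusted p = 0.0316) and was lowest in CTCF arrays 1 and 4, with 1244 and 1282 in empty vector arrays 1 and 2 and 545, 1123, 1082 and 557 in CTCF arrays 1 to 4.

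Lists of other regulators of some members were also counted. Of 10 measured p53 targets 1 fell and 0 rose with the array set block, CDKN1A by 1.38 (SE 0.21, limma adjusted p = 0.0444). With the pair block 0 of 10 passed, and 4 had an unadjusted p under 0.05, against 22.1% of all genes. There CDKN1A had -1.20 ± 0.17 (adjusted p = 0.0502) and GADD45A, the brightest, 0.52 ± 0.11. Of 13 hypoxia targets 1 rose and 0 fell in each fit, BNIP3 by 1.20 ± 0.14 and 1.26 ± 0.14. An unadjusted p under 0.05 in limma was found for 9 of 13 with the array set block and 8 of 13 with the pair block. The shares of all genes were 21.4% and 22.1%. The list's medians were 0.0027 and -0.085. Among 12 TORC1 inhibitors and VLDLR relatives, 0 passed with the array set block, where the receptor chaperone LRPAP1 had 0.16 ± 0.15, and with the pair block RELN alone rose, by 2.23 ± 0.16 (adjusted p = 0.0223). RELN, which encodes reelin, a ligand of VLDLR, read 180 and 297 in empty vector arrays 1 and 2 and 1250, 538, 608 and 1049 in CTCF arrays 1 to 4.

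**Figure D4:**
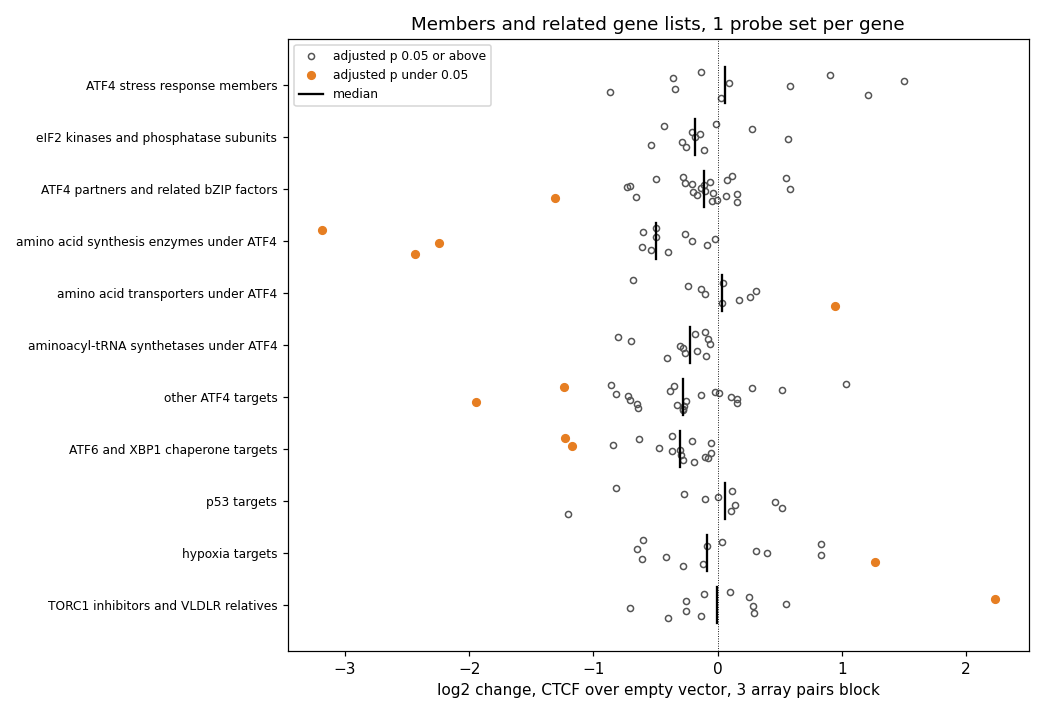
Log2 change of CTCF over empty vector with the 3 array pairs block, 1 probe set per gene, for the 10 members and 10 related lists; filled points passed an adjusted p of 0.05, open points did not, and black bars are medians. The members spread from -0.87 to 1.5 with none filled, while the amino acid synthesis list holds the lowest points, ASS1, PHGDH and ALDH1L2. Some genes are on more than 1 list.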

How the data were processed

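Biotin-labelled RNA of 2 empty vector and 4 CTCF samples was hybridised to 6 arrays, per the labels' protocols, and groups and replicate numbers come from the titles. Each array's deposited intensity values are linear; what software or normalization produced them is not given in the sources used here. A smaller deposited table, the authors' choice of 768 probe sets, gives means and signed fold changes, used as the authors' scores and selected on the lower bound and the difference, per the file headers.

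After adding 16 and taking log2, intensities were fitted with limma 3.58.1 (R 4.3.3, lmFit, eBayes, 2-sided, Benjamini-Hochberg over 54613 probe sets, without 62 controls, threshold 0.05). Average-linkage clustering of the arrays on 45 spike-in probe sets gave 2 array sets, the block of the first fit, and 3 array pairs. The array set block was chosen with earlier results of these data known, and the pair block was added after the data were examined. The number of arrays limits the precision. Probe sets follow GEO's platform annotation; 41037 of 41091 with 1 gene were matched by Entrez ID to RefSeq symbols (GRCh38.p14). A gene is summarised by its probe set with the highest mean. Members and lists were chosen with earlier results of these data known. Named genes are all members, CTCF, and per list the called genes (at most 4) or the brightest one. WARS1, SLC7A11's values, MANF's order and the CHAC1 neighbours follow the likeness measure or were chosen after values were seen. The fits were tried on simulated data in which 200 of 54613 probe sets changed. Simulated noise was drawn for each array on its own, with no effect of the pairs. The shares that follow thus need not hold for members whose values split by pair. The array set block recovered 67% of 2-fold and 100% of 4-fold changes, and 14 of its 181 calls were wrong. For the pair block the shares were 25% and 99%, and 6 of 130 calls were wrong. Leaving out the block gave 0% at either size. A member that did not pass may still have changed by 2-fold or more. With the array set block the SE of the log2 change was 1.02 for CHAC1 and 0.78 for DDIT4. Alternatives were no block, the replicate block, median centring, a variance trend, quantile normalization, removal of dim probe sets, pseudocounts of 1 and 64, and leaving out each array.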

Additional observations from a re-analysis of the deposited data

Results flagged for a closer look

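1 of 18 member probe sets had a sample far from the others of its group of 4: VLDLR (209822_s_at) read 50.3 in CTCF array 4, while the other CTCF arrays read 35.9 to 37.7. CTCF array 4 shares the smaller array set with empty vector array 1, which read 51.1. Chance alone sets apart about 1 in 20 groups, so 1 of 18 is near that rate.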

How the results depend on the processing

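No member probe set passed an adjusted p of 0.05 in limma under any of the 15 alternatives (268 values, adjusted p from 0.0552 to 1), and 249 of the values kept the direction found with the array set block. Over all probe sets, 1017 passed with the array set block, and 6 without the block, 2642 without dim probe sets, 2567 with a variance trend, 2 with a pseudocount of 1 and 2140 with a pseudocount of 64; leaving out 1 array gave 762 when that was CTCF array 1, 8 when it was CTCF array 3 and 0 for each of the others. With the replicate number as a block 0 passed. Same-numbered arrays had deviations from their group means correlated at -0.68 for number 1 and 0.70 for number 2. With 2 empty vector arrays these deviations mirror each other, so the correlations cannot show whether the numbers pair the arrays. The direction turned in 19 values. With the pair block ATF4 had 0.028, DDIT4 0.58, TRIB3 (218145_at) 0.094 and ASNS (241082_at) 0.15; with the replicate block ASNS (241082_at) had 0.24; and without a block SESN2 (223195_s_at) had -0.076. The other turns came from leaving out 1 array. Among the fits that leave out 1 array, the lowest values (without empty vector array 1) and the highest (without empty vector array 2) were -0.48 and 0.032 for ATF4, -0.22 and 0.14 for ATF5 (217389_s_at), -0.93 and 0.51 for DDIT4, -0.67 and 0.026 for TRIB3 (218145_at), -0.57 and 1.57 for CHAC1, -0.45 and 0.94 for SESN2 (223195_s_at) and -0.40 and 1.49 for SESN2 (223196_s_at). Without empty vector array 2, ATF3 (1554420_at) had -0.13, the lowest of these fits, and without empty vector array 1 it had 0.58, the highest of them. Leaving out CTCF array 4 gives the same values as leaving out empty vector array 1, since either leaves the larger set alone. Without CTCF array 1, CHAC1 had -0.23 and SESN2 (223195_s_at) -0.24. The cause of the spread among CTCF arrays was not tested. Low signal limits VLDLR, ATF3 (1554420_at) and ASNS (241082_at).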
